A study of Mus musculus with 3 samples.

Results

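The insulin-like growth factor (IGF) axis was described in 3 untreated MMTV-Neu mouse mammary tumours by 10 genes of 47480 gene symbols in the RNA-seq tables. The genes were listed by name and by role, in a choice made with earlier results of these data known. They were the ligand gene Igf1, the receptor genes Igf1r and Insr, the adaptor genes Irs1 and Irs2, and the binding protein genes Igfbp2, Igfbp3, Igfbp4, Igfbp5 and Igfbp7. All 10 passed the filter on low counts, as did 12710 genes in all. The single group held tumours of strain FVB-MMTV-Neu, which carries a rat Neu (Erbb2) transgene under the mouse mammary tumour virus promoter. Tumour tissue was, by the labels, grafted orthotopically into syngeneic hosts, reached 5 mm and then grew for 7 days with no treatment, although the series' own design text speaks of MMTV-Neu mice as their source and of no graft. Host age, and whether the tumours came from separate donors, are not given in the labels, so the spread between tumours may be partly technical. They are numbered 1 to 3 in accession order, which serves as a name alone.

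IGF-I and IGF-II bind the type I IGF receptor, a tyrosine kinase closely related to the insulin receptor. The activated receptors phosphorylate the insulin receptor substrate (IRS) adaptors, which recruit PI3-kinase and so activate AKT and mTOR. IGF-binding proteins hold most extracellular IGF and either block it or carry it to the receptor, and proteases release it again. In the mammary gland, growth hormone induces stromal IGF-I during ductal growth, and Igfbp5 is known for its high expression in the involuting gland.

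The 3 libraries differed in depth, in ribosomal RNA and in other tissue. They held 47449153, 11388769 and 17147394 estimated counts, in tumours 1, 2 and 3, and 22914, 16665 and 18248 gene symbols had counts. The ribosomal RNA symbol Rn18s-rs5 took 0.200, 7.87 and 6.68% of the counts. This share separates tumour 1 from the others, so it cannot be told apart from the difference of tumour 1. Levels are in CPM, the count scaled by its library's TMM-adjusted total, and 1 count corresponded to 0.0145, 0.124 and 0.0636 CPM. The TMM factors were 1.48, 0.722 and 0.936. By their file names, the library of tumour 1 was read in lane 1 and those of the other tumours in lane 5, so lane and the difference of tumour 1 from the others cannot be told apart, and values of tumours 2 and 3 are values within 1 lane. Over all genes, edgeR estimated a biological coefficient of variation of 63.5%, or 33.1% when tumour 1 was left out. The sum of 10 skeletal muscle markers came to 4.84 CPM in tumour 1 against 52345 and 23149 CPM in tumours 2 and 3. In bulk tissue, fewer cells of a type and less RNA per cell cannot be told apart. With 1 library per tumour, a difference between tumours has no replicate check and no p-value is given.

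The upstream sequences of 3 binding protein genes are shown here because the tumours differed most in which of these genes predominated, and because Igfbp2 and Igfbp5 lie side by side in the genome. Sequences are from RefSeq (GRCm38.p6, the mm10 chromosomes), 5′ to 3′ on the gene's strand and end just before the annotated gene or at the RefSeq start. Capitals mark matches on either strand to the TATA box letters TATAAA, the GC box GGGCGG, the CCAAT box, the FOXO letters GTAAACA or the STAT5 letters TTCNNNGAA. Igfbp2 is shown at chr1:72824230-72824479 (plus strand), Igfbp5 at chr1:72874885-72875115 (minus strand) and Igfbp4 at chr11:99040994-99041243 (plus strand).
Igfbp2: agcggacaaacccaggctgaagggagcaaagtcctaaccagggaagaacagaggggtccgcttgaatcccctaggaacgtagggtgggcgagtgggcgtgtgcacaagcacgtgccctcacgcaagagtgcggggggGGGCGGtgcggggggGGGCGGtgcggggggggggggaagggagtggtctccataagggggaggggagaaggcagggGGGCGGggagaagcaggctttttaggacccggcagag
Igfbp5: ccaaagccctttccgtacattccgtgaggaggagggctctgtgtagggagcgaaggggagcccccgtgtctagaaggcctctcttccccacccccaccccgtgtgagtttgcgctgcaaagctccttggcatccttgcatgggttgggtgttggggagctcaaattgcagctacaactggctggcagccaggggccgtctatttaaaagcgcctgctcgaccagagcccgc
Igfbp4: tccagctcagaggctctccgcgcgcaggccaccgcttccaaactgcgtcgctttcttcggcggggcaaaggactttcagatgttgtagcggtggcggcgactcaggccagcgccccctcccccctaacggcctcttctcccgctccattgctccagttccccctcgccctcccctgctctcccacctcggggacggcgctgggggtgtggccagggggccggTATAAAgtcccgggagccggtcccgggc

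The neighbouring genes Igfbp2 and Igfbp5 did not share these letters. Igfbp2 held 3 GC boxes in this window and Igfbp5 none of the motifs, and Igfbp4 held 1 TATA box. Over 32851 windows of 250 bases before a RefSeq start, 12.4% held TATAAA, 32.7% GGGCGG, 33.8% CCAAT, 3.17% GTAAACA and 7.02% TTCNNNGAA. Of the 9 members with a RefSeq window, 5 held a GC box (Igf1r, Irs1, Irs2, Igfbp2 and Igfbp7), 2 held CCAAT (Igf1 and Irs2), and none held the FOXO or STAT5 letters. The window of Igf1 lies inside the gene as GENCODE annotates it. A match is a description of the letters and not a binding site.

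Tumour 1 combined little Igf1 with much Igf1r, Irs2, Igfbp2 and Igfbp5, and tumours 2 and 3 the reverse. Of the 10 members, 7 were highest in tumour 1, 3 in tumour 2 (Igf1, Igfbp3 and Igfbp4) and none in tumour 3, against 47.1%, 35.0% and 17.9% of all genes past the filter. The term apart is used for a gene whose log2 CPM in 1 tumour differed by 2 or more (4-fold), in the same direction, from that in both others. In tumour 1, Igfbp2 and Igfbp5 lay apart above, as did 6.05% of all genes, and Igf1 lay apart below, as did 8.21%. The filter required a minimum level in every library, so genes nearly absent from 1 tumour are left out of these shares. No member lay apart in tumour 2 or in tumour 3, where 0.842% and 0.157% of all genes did. At 2-fold, 6 members were above both others in tumour 1 (22.1% of all genes) and 1, Igf1, was below (20.7%). The members' median SD of log2 CPM was 1.06, beside 0.72 over all genes.

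**Figure D1:**
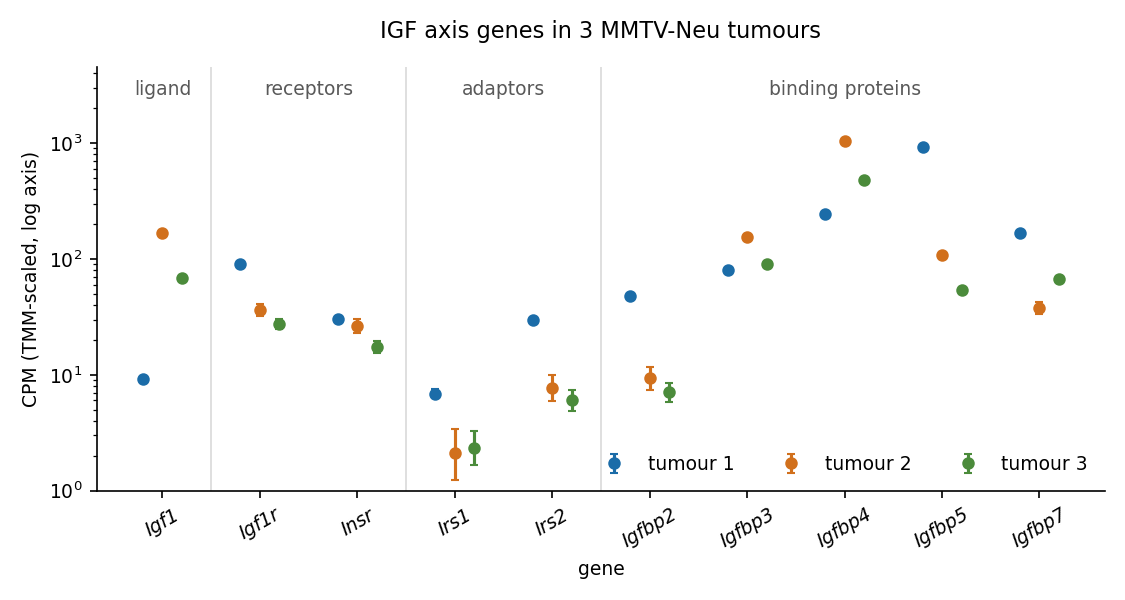
CPM of the 10 genes in each tumour on a log axis, ordered by role, with exact 95% Poisson intervals that cover counting error alone. Igf1 is lowest in tumour 1 at 9.11 CPM, while Igfbp5 is highest there at 933 CPM.

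The ligand gene Igf1 (ENSMUSG00000020053, GRCm38, chromosome 10, 87858265 to 87937042, as all positions of genes here) had 9.11 CPM in tumour 1, 167 CPM in tumour 2 and 68.6 CPM in tumour 3, with a mean of 81.6 ± 79.8 CPM (SD, n = 3). Tumour 1 lay 18.4-fold below tumour 2 and 7.53-fold below tumour 3. Within the shared lane, tumour 2 was higher than tumour 3 by 1.28 on the log2 scale. The other ligand gene, Igf2, which encodes the fetal growth factor IGF-II, followed the same order for tumour 1, at 0.867, 638 and 959 CPM. Tumours 2 and 3 thus held many transcripts of both ligands, and tumour 1 few of either.

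Cells known to make IGF-I were compared by their markers. The 12 fibroblast markers summed to 4882, 7185 and 4126 CPM and the 10 macrophage markers to 709, 3854 and 2500 CPM. The 8 adipocyte markers summed to 504, 460 and 329 CPM, and no marker of these 3 lists was at 0 in any tumour. The collagen genes Col1a1, Col1a2 and Col3a1 made up 77.2, 84.4 and 76.0% of the fibroblast sum, and the other 9 markers summed to 1112, 1120 and 991 CPM. Within the list, 2 of 12 markers were at least 2-fold below both others in tumour 1, as were 20.7% of all genes. These were Pdgfra (18.1, 84.5 and 59.3 CPM) and Dcn (75.1, 172 and 174 CPM). Another 3 markers were highest in tumour 1, as were 47.1% of all genes. They were Col3a1 (965, 566 and 402 CPM), Fn1 (583, 290 and 294 CPM) and Pdgfrb (82.7, 82.4 and 57.5 CPM). The macrophage sum was led by C1qa (161, 2426 and 1369 CPM), while 4 of its 10 markers, Adgre1, Cd68, Cd14 and Mertk, were highest in tumour 1. Per 1000 CPM of fibroblast markers, Igf1 was at 1.87, 23.3 and 16.6 CPM, and without the 3 collagens at 8.19, 149 and 69.2 CPM. Per 1000 CPM of macrophage markers it was at 12.8, 43.4 and 27.4 CPM, and without C1qa at 16.6, 117 and 60.6 CPM. Igf1 was thus lowest in tumour 1 against each of these scales. The sums of endothelial, pericyte and skeletal muscle markers were lowest in tumour 1 too. Igf1 was at 36.5, 112 and 113 CPM per 1000 CPM of endothelial markers. Per 1000 CPM of skeletal muscle markers it was at 1881, 3.19 and 2.96 CPM, highest in tumour 1. Per 1000 CPM of the 7 pericyte and smooth muscle markers Igf1 was at 33.4, 44.2 and 34.0 CPM, nearly level between tumours 1 and 3. That sum held 4.10, 84.3 and 84.4% Des, which skeletal muscle also expresses. Per 1000 CPM of the other 6 markers Igf1 was at 34.8, 282 and 219 CPM. The part of these cells in the result was not tested.

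The receptor gene Igf1r (ENSMUSG00000005533, chromosome 7, 67952827 to 68233668) was at 90.1, 36.5 and 27.6 CPM, or 51.4 ± 33.8 CPM (SD, n = 3). Tumour 1 was 2.46-fold above tumour 2 and 3.27-fold above tumour 3. Basal and myoepithelial markers, described with Igfbp5, were highest in tumour 1 as well. Per 1000 CPM of the 9 markers Igf1r was at 108, 84.6 and 89.7 CPM, but per 1000 CPM of the 8 markers other than Acta2 it was at 157, 593 and 439 CPM, lowest in tumour 1. Their part in the result was not tested. The insulin receptor gene Insr (ENSMUSG00000005534, chromosome 8, 3122061 to 3279617) was more even, at 30.3, 26.3 and 17.3 CPM, and its 24.6 ± 6.66 CPM had the smallest SD of log2 CPM among the members, 0.42. Ratios of 2 genes within a tumour do not depend on how libraries are scaled. Per kilobase of transcript, Igf1r exceeded Insr 2.44-fold in tumour 1, 1.14-fold in tumour 2 and 1.31-fold in tumour 3. Igf1 per kilobase was 7.40-fold and 4.02-fold above Igf1r in tumours 2 and 3, and 6.11-fold below it in tumour 1. The ligand to receptor balance of transcripts therefore lay on opposite sides in tumour 1 and in the other tumours.

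The mannose-6-phosphate receptor gene Igf2r, whose protein clears IGF-II, went with Igf1r and against Igf2, at 155, 34.3 and 50.5 CPM. Igfals, which encodes the acid-labile subunit of the circulating IGF complex, had 820, 4 and 4 counts and did not pass the filter. The insulin genes Ins1 and Ins2 had 0 counts in each library, which allows up to 0.0434, 0.373 and 0.191 CPM, and Insrr, an insulin receptor relative, had 3, 2 and 30 counts.

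Both IRS adaptor genes were highest in tumour 1. Irs2 (ENSMUSG00000038894, chromosome 8, 10984681 to 11008458) was at 29.4, 7.71 and 6.04 CPM, 3.82-fold and 4.87-fold higher in tumour 1, just short of lying apart. Irs1 (ENSMUSG00000055980, chromosome 1, 82233101 to 82291416) was the lowest member, at 6.85, 2.11 and 2.35 CPM from 474, 17 and 37 counts. The intervals of tumours 2 and 3 overlapped for Irs1 (1.23 to 3.38 and 1.66 to 3.24 CPM), so a difference between them was not detectable at this depth. Gm9747, annotated on the opposite strand over Irs1, had 1095, 164 and 271 counts, or 15.8, 20.4 and 17.2 CPM. Since the strand setting is not given, Irs1 is uncertain. Per kilobase Irs2 exceeded Irs1 6.21-fold, 5.27-fold and 3.71-fold, in the same direction in 3 of 3 tumours.

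Igfbp5 (ENSMUSG00000026185, chromosome 1, 72857932 to 72874884) ranged as widely as Igf1, in the opposite direction. It was at 933, 108 and 53.4 CPM, 8.66-fold above tumour 2 and 17.5-fold above tumour 3. Its mean was 365 ± 492.9 CPM (SD, n = 3), and its SD of log2 CPM was 2.15, as was that of Igf1. Igfbp2 (ENSMUSG00000039323, chromosome 1, 72824503 to 72852474), which ends 5.46 kb before Igfbp5, was at 47.5, 9.32 and 7.05 CPM, or 5.09-fold and 6.73-fold higher in tumour 1. Basal and myoepithelial markers moved with this pair. The 9 markers summed to 835, 432 and 307 CPM, with 6 of 9 at least 4-fold above both others in tumour 1, beside 6.05% of all genes, and none at 0 in any tumour. Acta2, which did not follow the others (263, 370 and 245 CPM), made up 85.7 and 79.6% of the sum in tumours 2 and 3. Per 1000 CPM of the 9 markers, Igfbp5 was at 1118, 249 and 174 CPM. Without Acta2, whose removal was chosen after these values were seen, the sum was 572, 61.6 and 62.9 CPM. Igfbp5 was then at 1631, 1748 and 850 CPM per 1000, so its excess over tumour 2 depended on Acta2. Igfbp2 was at 56.9, 21.6 and 22.9 CPM per 1000 CPM of the 9 markers. Without Acta2 it was at 83.0, 151 and 112 CPM, lowest in tumour 1, so its excess over both others depended on Acta2. The part of basal cells in the result was not tested.

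Igfbp7 (ENSMUSG00000036256, chromosome 5, 77349240 to 77408041), which encodes a secreted protein of vessel walls with low affinity for IGF, was at 167, 37.9 and 66.6 CPM, 4.41-fold and 2.51-fold higher in tumour 1. The sum of 10 endothelial markers went the other way, at 250, 1492 and 610 CPM, with none at 0. It was led by Pecam1 (56.4, 775 and 231 CPM). At least 2-fold below both others in tumour 1 were 4 of the 10, beside 20.7% of all genes. Kdr (19.2, 33.6 and 15.6 CPM), Vwf (8.40, 18.4 and 6.93 CPM) and Tek (5.87, 6.46 and 5.59 CPM) were higher in tumour 1 than in tumour 3. The sums of 7 pericyte and smooth muscle markers were 273, 3778 and 2015 CPM, or 261, 593 and 314 CPM without Des, and those of 9 luminal epithelial markers 2353, 1995 and 2977 CPM. Polr2b overlaps Igfbp7 on the other strand, so their reads could be mixed.

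Igfbp4 and Igfbp3 were highest in tumour 2. Igfbp4 (ENSMUSG00000017493, chromosome 11, 99041244 to 99054392), whose protein inhibits IGF until it is cleaved by pappalysin, was at 247, 1046 and 478 CPM, or 590 ± 411 CPM (SD, n = 3). Tumour 1 was 4.24-fold below tumour 2 and 1.94-fold below tumour 3. Igfbp3 (ENSMUSG00000020427, chromosome 11, 7206086 to 7213923), the main carrier in plasma, was at 79.5, 154 and 91.1 CPM, or 108 ± 39.9 CPM, and differed 1.15-fold between tumours 1 and 3. Igfbp6, which prefers IGF-II, was no member but followed the ligands, at 9.99, 113 and 80.7 CPM. Igfbp1, next to Igfbp3, had 2, 0 and 0 counts, and the related Igfbpl1 had 0 in each library.

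The make-up of the IGF-binding protein transcripts differed between tumours. Shares were taken of the CPM per kilobase summed over Igfbp1 to Igfbp7, which was 437, 495 and 305 in tumours 1, 2 and 3. Igfbp5 held 35.5% of the sum in tumour 1 and 3.62 and 2.92% in tumours 2 and 3. Igfbp4 held 14.7% in tumour 1 against 55.2 and 41.0%, and Igfbp6 held 2.05% against 20.5 and 23.8%. Igfbp7 held 31.9, 6.38 and 18.2%. Igfbp3 was the steadiest of the larger shares, at 10.9 ± 2.94% (SD, n = 3). Per kilobase, Igfbp5 exceeded Igfbp4 2.41-fold in tumour 1, whereas Igfbp4 exceeded Igfbp5 15.2-fold and 14.03-fold in tumours 2 and 3. The summed level differed less than its parts did.

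**Figure D2:**
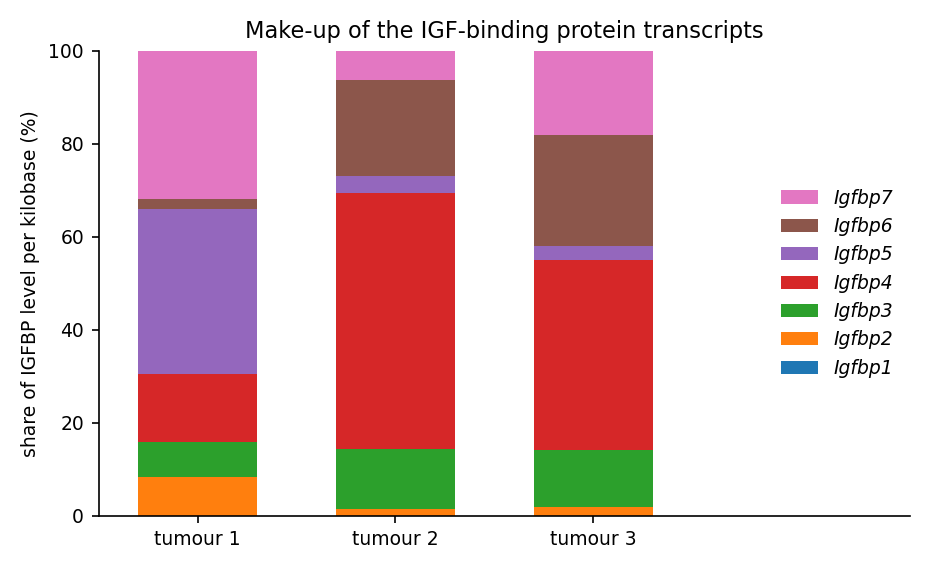
Share of each gene in the summed CPM per kilobase of Igfbp1 to Igfbp7, 1 bar per tumour. Igfbp5 and Igfbp7 fill most of the bar of tumour 1 (35.5 and 31.9%), and Igfbp4 and Igfbp6 most of the bar of tumour 2 (55.2 and 20.5%).

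In order of mean CPM per kilobase of the longest transcript, the members ran Igfbp4 (154 ± 107), Igfbp7 (75.5 ± 56.7), Igfbp5 (60.7 ± 82.1), Igfbp3 (44.7 ± 16.5), Igfbp2 (16.3 ± 17.4), Igf1 (11.6 ± 11.3), Igf1r (4.505 ± 2.96), Insr (2.63 ± 0.71), Irs2 (2.28 ± 2.06) and Irs1 (0.413 ± 0.292), each with SD and n = 3. Ranges over the tumours overlapped for every pair of neighbours in this order except Irs2 and Irs1. Igfbp5 ranked 1 in tumour 1 and 5 in tumours 2 and 3, Igf1 ranked 9 and then 4 and 4, and Insr and Irs1 ranked 8 and 10 in each tumour. The binding proteins thus lay above the receptors and adaptors in each tumour. Over tumours 2 and 3, 6 of the 9 neighbouring pairs did not overlap.

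Tumours 2 and 3, which share a lane, differed in fewer of these genes at the same folds. In 3 members they were at least 2-fold apart (Igf1, Igfbp4 and Igfbp5, each higher in tumour 2), beside 16.2% of all genes. Igfbp7 was higher in tumour 3 by 0.81 on the log2 scale. With tumour 2 left out, tumour 1 was at least 4-fold above tumour 3 in Irs2, Igfbp2 and Igfbp5 and below it in Igf1, beside 8.75 and 9.54% of all genes. With tumour 3 left out, it was above tumour 2 in Igfbp2, Igfbp5 and Igfbp7 and below it in Igf1 and Igfbp4, beside 14.3 and 13.6% of all genes.

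Genes beside the members did not all share the members' pattern. Between start sites up to 500 kb apart, Igfbp5 had 3 protein-coding neighbours past the filter. Igfbp2 lay apart above in tumour 1, the ribosomal protein gene Rpl37a lay apart below (616 against 3455 and 2929 CPM), and Smarcal1 differed by 1.22 on the log2 scale. Igfbp4 lies 604 kb from Erbb2. Its 19 neighbours had a median difference of −0.10 on the log2 scale, with −1.52 for Igfbp4 itself. Its nearest neighbours Top2a (199, 132 and 191 CPM) and Tns4 (13.4, 4.72 and 7.75 CPM) were highest in tumour 1. Of the 19, 1 lay apart below in tumour 1, Rara (27.4, 265 and 122 CPM), beside 8.21% of all genes, and none above. None of the 3 neighbours of Irs2 lay apart, nor any of 3 around Igf1, the nearest being the collagen gene Col4a1 (519, 511 and 258 CPM) and Parpbp, which differed by 1.28 on the log2 scale.

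**Figure D3:**
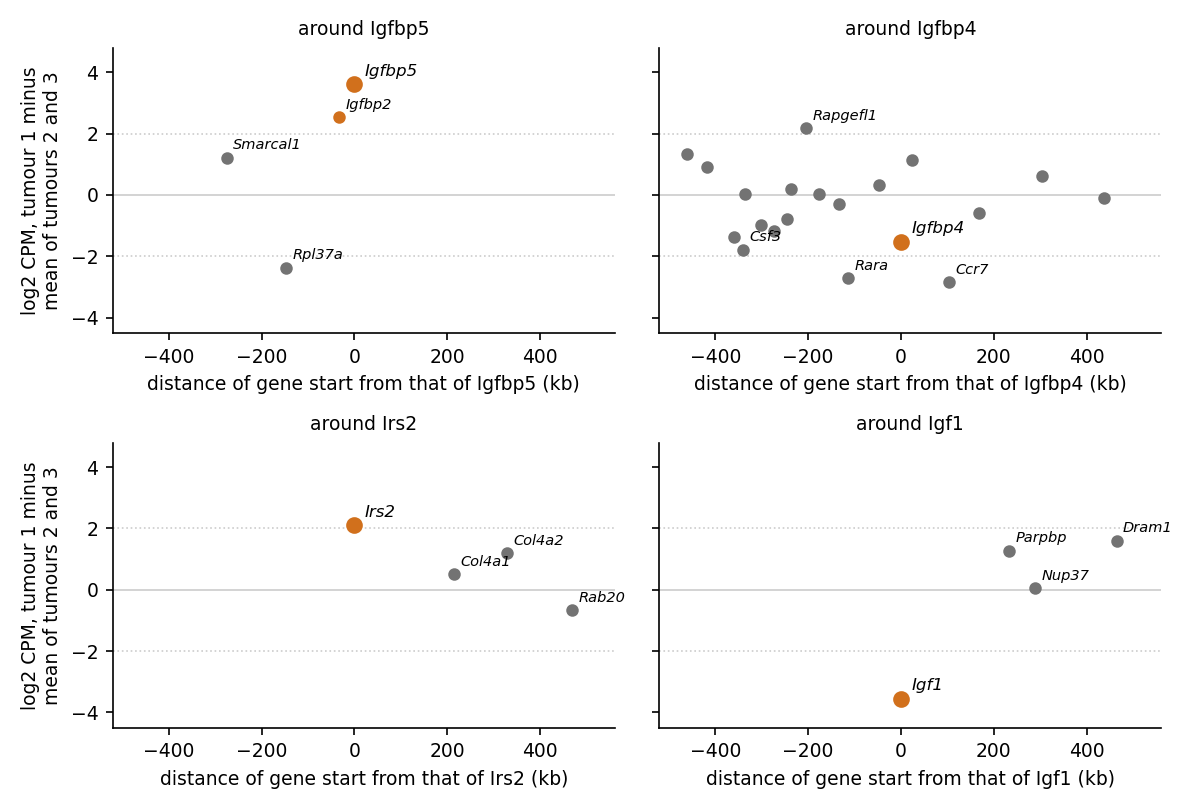
Log2 CPM in tumour 1 minus the mean of tumours 2 and 3, for protein-coding genes past the filter, against the distance of their start from that of Igfbp5, Igfbp4, Irs2 or Igf1 in kb (orange, members of the IGF axis; grey, other genes; dotted lines, differences of 2 and −2). Igfbp2 and Igfbp5 are both above 2, while Rpl37a beside them is at −2.37.

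Genes that release or protect IGF were lower in tumour 1 where they differed most. Of 9 genes for binding protein proteases and their inhibitors, 6 passed the filter. Of these, 3 lay apart below in tumour 1, beside 8.21% of all genes, and none above. The cathepsin D gene Ctsd was at 586, 10410 and 6507 CPM, Htra1, a serine protease that cleaves binding proteins, at 38.9, 389 and 204 CPM, and Stc1, encoding a stanniocalcin that inhibits pappalysins, at 1.42, 26.6 and 6.67 CPM. Stc2, of the same family, was at 31.0, 10.4 and 13.7 CPM instead. Pappa, the main protease of IGFBP4, did not pass the filter, with 105, 5 and 7 counts.

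Downstream genes of the PI3K, AKT and mTOR list were mostly higher in tumour 1. All 24 passed the filter. In tumour 1, 4 lay apart above and none below, beside 6.05 and 8.21% of all genes. At 2-fold, 11 were above and 1 was below, beside 22.1 and 20.7% of all genes. The 1 below was the regulatory subunit gene Pik3r2 (40.1, 123 and 87.5 CPM). The median difference of tumour 1 was 1.28 on the log2 scale, beside 0.11 over all genes and 1.55 over the 10 members. The mTOR activator Rheb was at 77.7, 4.10 and 9.28 CPM, Rptor at 53.7, 6.34 and 10.4 CPM, Mtor at 33.0, 6.09 and 7.44 CPM, and Pik3r1, which encodes p85 alpha, at 46.2, 10.6 and 9.22 CPM. The kinase gene Akt1 was highest in tumour 1 as well (328, 153 and 198 CPM), whereas the translation repressor Eif4ebp1 was lowest there (144, 359 and 268 CPM). With the trend of differences with GC content and transcript length removed, the median of the list was 0.79. Then 2 genes lay apart above, beside 5.52% of all genes, and 8 were above at 2-fold, beside 19.2%.

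Of 13 receptor adaptors and docking genes, 10 passed the filter. The phosphatase gene Ptpn11 (136, 21.5 and 25.3 CPM) and the adaptor gene Sh2b1 (128, 24.9 and 25.4 CPM) lay apart above in tumour 1, as did 6.05% of all genes. Grb10, an imprinted inhibitor of both receptors, lay apart below (19.0, 115 and 78.0 CPM), as did 8.21% of all genes. The common adaptors Shc1 and Grb2 were even, at 79.4 ± 16.9 and 72.6 ± 10.4 CPM. Of 13 FOXO factors and FOXO target genes, 11 passed. Among these 1, the pyruvate dehydrogenase kinase gene Pdk4, lay apart below in tumour 1 (5.74, 56.5 and 57.3 CPM), beside 8.21% of all genes. Txnip was at 122, 803 and 407 CPM and Trib3 at 48.2, 49.3 and 71.8 CPM. At 2-fold, 3 of the 11 were above both others in tumour 1 and 2 were below, beside 22.1 and 20.7% of all genes. Those above were Foxo4 (30.4, 5.22 and 8.14 CPM), Sesn3 (38.0, 5.59 and 12.1 CPM) and Cdkn1b (58.8, 19.5 and 27.3 CPM). Those below were Pdk4 and Txnip. With the GC and length trend removed, 1 was above and 2 were below, beside 19.2 and 19% of all genes. The list's median difference was 0.27.

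**Figure D4:**
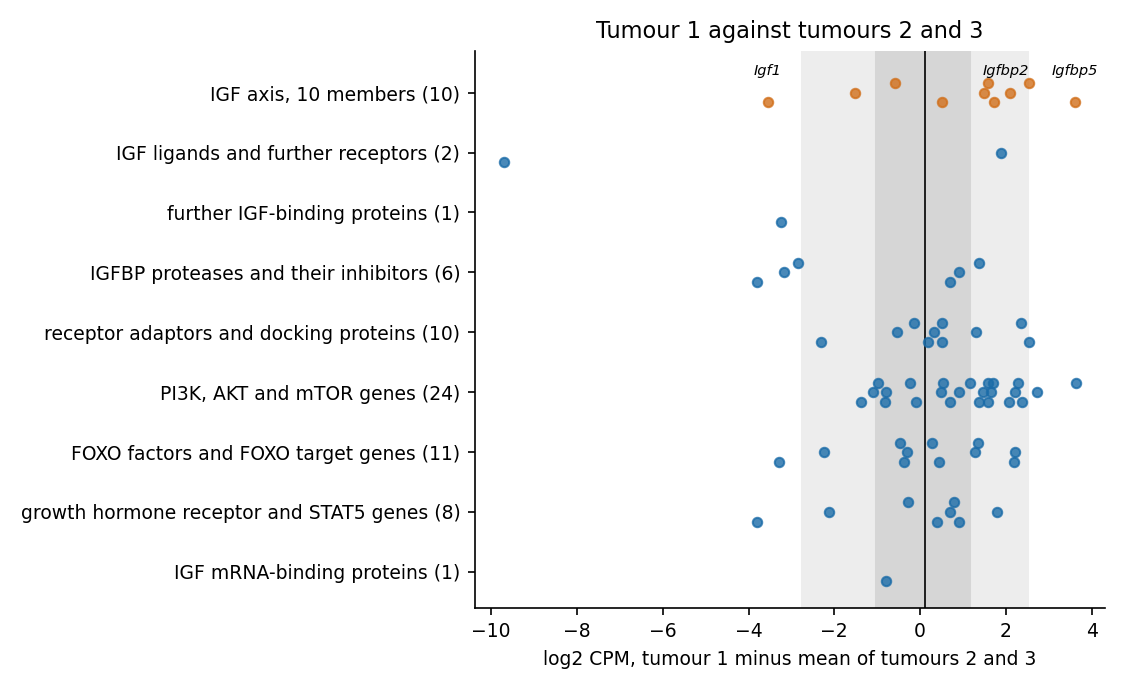
Log2 CPM in tumour 1 minus the mean of tumours 2 and 3, 1 point per gene past the filter, for the 10 IGF axis genes (orange) and the pathway lists (blue, number of genes in brackets). The line is the median of all genes (0.11), the dark band holds their 25 to 75 percentiles (−1.02 to 1.16) and the light band their 5 to 95 percentiles (−2.76 to 2.52); Igf1 and Igfbp5 lie outside the light band on opposite sides.

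Other genes with the most similar pattern were found by the Euclidean distance of centred log2 CPM over the 3 tumours, among 11412 other genes. For Igfbp5 these were Palld (0.0107), the basal keratin Krt14 (0.116) and P3h2 (0.120), and 5 genes in all lay within 0.25. For Igf1 they were Gpx3 (0.0402), Rbm38 (0.0586) and Il17d (0.0614), with 45 within 0.25. Patterns of Irs1 and Igfbp7 were common, with 396 and 371 genes within 0.25. With 3 tumours few distinct patterns are possible, so a small distance is a description.

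Under other processing the members kept the sign of their difference in tumour 1, with 2 exceptions. The difference of Igf1 from the mean of the other tumours was −3.55 on the log2 scale and lay between −4.30 and −2.70 under 8 other settings, that of Igfbp2 was 2.54 (2.45 to 3.96), and that of Igfbp5 was 3.62 (3.20 to 4.47). Insr turned from 0.50 to −0.11 when the GC and length trend was removed, and Igfbp3 from −0.57 to 0.27 with scaling by total counts, which shifts the median of all genes by 0.84.

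**Figure D5:**
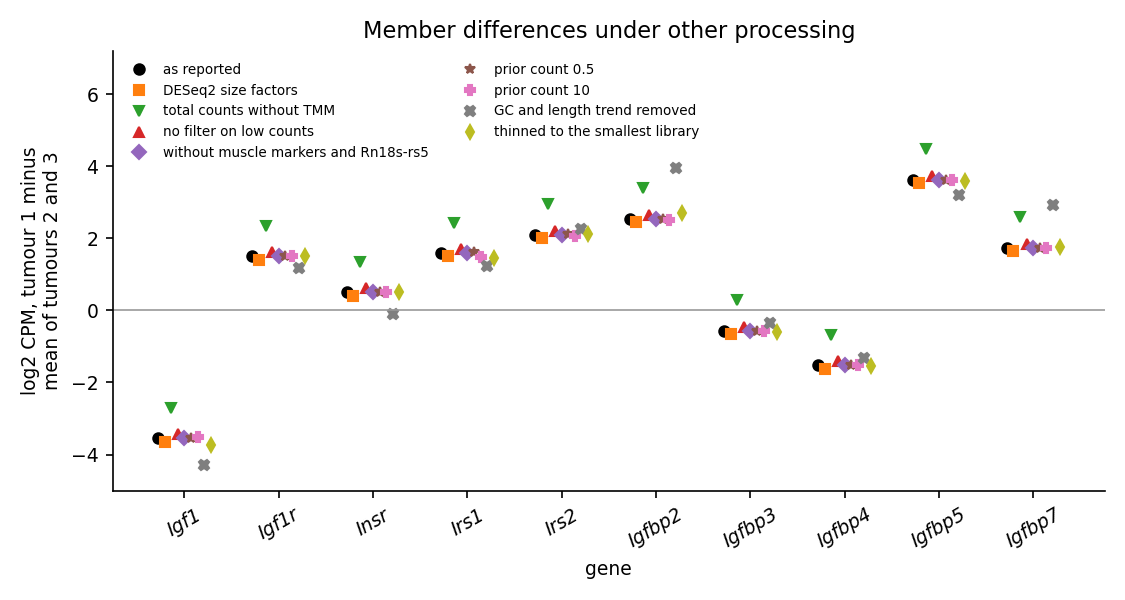
Log2 CPM in tumour 1 minus the mean of tumours 2 and 3 for each of the 10 genes, as reported (black) and under 8 other settings (coloured). Igf1 is below −2 and Igfbp2 and Igfbp5 above 2 in each setting.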

How the data were processed

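RNA-seq libraries of 3 tumours, 1 per tumour, were analysed as 1 group. The deposited values are estimated counts per gene symbol made by the authors with Salmon, per the file headers. STAR, SAMtools, Picard, Salmon and genome build mm10 are named in the submitters' processing notes. For versions, annotation release and strand, the sources used here give nothing.

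Estimated counts were rounded, filtered with filterByExpr of edgeR 4.0.16 (minimum count 10, minimum total 15) and scaled by TMM in R 4.3.3. Log2 CPM used a prior count of 2. Of the symbols, 45213 matched GENCODE M21 (GRCm38), which gave positions and the longest transcript. Poisson intervals are exact, at 95%, and cover counting error only. The fold rule was tried on simulated libraries with changes larger than 4-fold and less spread than these tumours had. That trial cannot show how often unchanged genes pass the rule here. Alternatives included DESeq2 1.42.0 size factors, total counts, no filter, other prior counts, thinning, and removal of a GC and length trend.

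All members were named. From each list, the 2 genes highest per kilobase and up to 3 lying apart were named; the nearest genes on each side and 3 most similar genes were fixed by rule. Pik3r1, Pik3r2, Stc2, Smarcal1, Rara, Foxo4, Sesn3, Cdkn1b and the genes below the filter were named after their values were seen. So were the marker genes Pdgfra, Dcn, Col3a1, Fn1, Pdgfrb, Kdr, Vwf and Tek. The removal of the collagens, C1qa, Des and Acta2 from marker sums was also chosen after the values were seen. Members and lists were chosen with earlier results of these data known.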

Additional observations from a re-analysis of the deposited data

How the results depend on the processing

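Igf1, Igfbp2 and Igfbp5 lay apart in tumour 1 under every scaling, filter, prior count, trend and depth setting run. The count of members apart in tumour 1 (3) came to 6 with total counts, where 16.2% of all genes lay above and 3.6% below. It came to 5 with the GC and length trend removed (5.52 and 6.36% of all genes). At 2-fold it was 7 (22.1 and 20.7% of all genes) and at 8-fold 1 (Igfbp5). Leaving out a tumour gave 4 (8.75% of all genes above and 9.54% below) to 5 (14.3 and 13.6%). In tumours 2 and 3 the count (0) was 2 and 1 at 2-fold, and leaving out a tumour gave 0 to 5 and 0 to 4, because 1 tumour was then compared with 1 other. The share of all genes was not taken at 8-fold, nor for tumours 2 and 3 at 2-fold, so those counts have no background. The biological coefficient of variation (63.5%) ranged from 33.1% without tumour 1 to 78.8% without tumour 3, and was 85.2% with no filter. In the order per kilobase, the pairs of neighbours that did not overlap (1) numbered 3 with the median transcript length, and 1 to 6 when a tumour was left out, with 6 without tumour 1. Irs2 reached 4-fold with no filter, with total counts, with the trend removed and without tumour 2, and Igfbp7 with the trend removed and without tumour 3. The cause was not tested. No paired analysis was possible because the series has 1 group. Depth limits low genes most in tumour 2, where 3 counts are 0.373 CPM.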

Other observations

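The genes of growth hormone signalling, which induces Igf1 in many tissues, did not all follow Igf1. All 8 passed the filter, with 1 lying apart below in tumour 1, beside 8.21% of all genes, and none above. Socs1, a cytokine signalling inhibitor, was at 3.01, 48.1 and 38.1 CPM in tumours 1, 2 and 3. Socs2, a known STAT5 target, was at 68.6, 233 and 382 CPM, and Socs3 at 69.5, 15.04 and 26.6 CPM. The growth hormone receptor gene Ghr was at 14.4, 8.08 and 9.79 CPM, and it was named after its values were seen. Of 3 genes for IGF mRNA-binding proteins, Igf2bp2 passed the filter, at 5.54, 8.70 and 10.6 CPM, and Igf2bp1 had 1, 1 and 15 counts.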
